A study of Homo sapiens with 8 samples.

Results

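The comparison described here set SK-MEL-5 cells treated with THZ1, a covalent inhibitor of the kinase CDK7, against cells given its solvent DMSO. It used 4 of the 8 arrays of the series, 2 labelled SKMEL5_THZ1_250nM and 2 labelled SKMEL5_DMSO, and it covered every gene with a probe set naming 1 gene symbol. SK-MEL-5 is an established human melanoma line, so all values come from 1 line. The THZ1 cells received 250 nM for 6 h in 25 uM DMSO, and the control label gives 25 uM DMSO without a duration. Both groups were grown in DMEM with 10% fetal calf serum. RNA was spiked with ERCC transcripts in proportion to cell number, and 100 ng was used per Affymetrix array. The other 4 arrays of the series, of cells given an siRNA against MITF or a control siRNA, were not compared. They entered the estimate of spread, the choice of probe sets, the signal cut and the centring defined below. By its title, the study asks what CDK7 inhibition does to lineage genes in melanoma.

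CDK7 pairs with cyclin H and MAT1 to form the kinase of TFIIH, a general transcription factor, and it also activates the kinases of the cell cycle. In TFIIH it phosphorylates the tail of RNA polymerase II as transcription starts, and THZ1 binds CDK7 and, at higher doses, the related kinases CDK12 and CDK13. When transcription is inhibited, short-lived mRNAs are lost before stable ones, as a general matter. Transcription factors and immediate early genes often have short-lived mRNAs, while those of ribosomal and respiratory proteins are often stable.

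Melanocyte markers were bright on all 4 arrays. PMEL, a melanosome protein, had signals of 12592 and 11874 with DMSO and 9690 and 11309 with THZ1. MLANA, another melanosome protein, had 8887 and 9688 with DMSO and 8842 and 10641 with THZ1, so its groups overlapped. SOX10, a neural crest factor, had 418 and 566 with DMSO and 151 and 214 with THZ1. The summed signal of the 8 melanocyte markers with a probe set was 41872 and 45260 with DMSO and 36779 and 45397 with THZ1. On the relative scale defined below SOX10 and MITF were called lower and MLANA, TYR and S100B higher (0.26, 0.28 and 0.30). As deposited only SOX10 of these 5 passed. With quantile normalization the last 3 did not pass (-0.02, 0.03 and 0.07), and without the second DMSO array neither MLANA nor TYR did, nor MLANA without the first THZ1 array. SOX10 fell by 1.16 on the tested probe set but by 0.25 on its other, and the other probe set of TYR gave 0.01. Of 10 fibroblast markers 4 were bright enough to test, and DCN, LUM and PDGFRA of these were called higher on the relative scale. The fibroblast sum was 2472 and 2987 with DMSO and 2769 and 3563 with THZ1. By their mean log2 signal over all 8 arrays, COL1A1, COL1A2 and COL3A1 lay below the signal cut of 39.2. On the arrays compared here COL1A1 had 36.8 and 45.4 with DMSO and 39.9 and 46.2 with THZ1. For keratinocytes the sums were 832 and 1168 with DMSO and 758 and 1058 with THZ1, for leukocytes 354 and 438 against 366 and 441, and for endothelial cells 337 and 432 against 259 and 366. In each of these 3 lists 2 genes were tested, of which CD68 was called higher and KDR lower. CD68 and KDR no longer passed without the first DMSO or the first THZ1 array, nor PDGFRA without the second DMSO or the first THZ1 array, while DCN and LUM still did without any 1 array. The part of these marker genes in the results below was not tested.

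Each difference is the mean log2(signal + 16) with THZ1 minus that with DMSO (n = 2 arrays per group), so low signals understate it. On the deposited scale the signals were used as given. On the relative scale each array was first centred on the median deviation of its genes, and a difference of 0 then means that a gene moved with most others. Over 49495 probe sets the DMSO arrays had median signals of 61.3 and 76.1 and the THZ1 arrays 51.1 and 67.6, so the groups overlapped. ERCC probe sets at or above the signal cut had a median difference of 0.02 (50 probe sets). The array offsets removed by centring were 0.21 and 0.51 with DMSO and -0.04 and 0.37 with THZ1, a difference of -0.20 that is smaller than the gap between arrays of a group. In bulk RNA, fewer cells making an mRNA and less of it per cell cannot be told apart. Nothing in the labels tells if both arrays of a group are separate cultures, so the p-values reflect array-to-array spread that may be technical, and the number of arrays limits the precision.

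Of 11947 tested genes, 2520 (21.1%) were lower and 2115 (17.7%) higher on the relative scale (limma, Benjamini-Hochberg adjusted p under 0.05). Differences of at least 1.5-fold were far less even, with 878 genes lower (7.35%) and 51 higher (0.427%). On the deposited scale 1199 genes (10.0%) were lower and 9 (0.0753%) higher. Of the 1199 lower genes 1192 were also lower on the relative scale, and the 9 higher genes were higher on both. All 878 genes lower by at least 1.5-fold had both THZ1 signals below both DMSO signals as deposited, a pattern seen in 30.0% of tested genes. Of the 51 higher genes 41 had both THZ1 signals above both DMSO signals, against 0.871% of all genes. Both sets were chosen by size and spread on these same arrays, so their separation is largely built in and is no further evidence. The split depends on the centring, since the median of all genes was 0.04 on the relative scale, -0.16 as deposited and 0.17 when each array was centred on the median of its own genes. That last centring gave 1767 genes lower and 4530 higher. The deposited scale shared 1 SE of 0.25 among all genes and treated it as exactly known, so its p-values overstate the evidence, and with each gene's own variance it called 0 genes in either direction. At an unadjusted p under 0.05 limma gave 2319 genes on that scale.

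**Figure D1:**
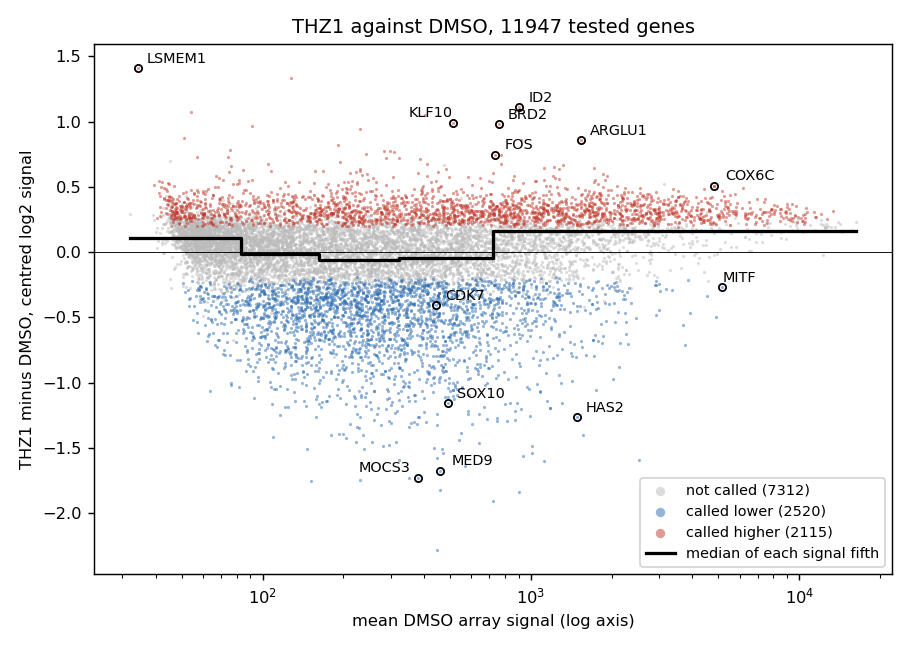
Each point is 1 tested gene, with its mean DMSO signal on a log axis and its centred log2 difference, THZ1 minus DMSO, on the other axis. Blue marks the 2520 genes called lower, red the 2115 called higher, grey the rest, and the black line is the median of each signal bin, which is highest, 0.16, in the brightest.

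The size and direction of the difference varied with how bright a gene was. Genes were put into 5 bins of equal size by their DMSO signal. The median relative difference was 0.10 in the dimmest bin, -0.01, -0.06 and -0.04 in the middle bins, and 0.16 in the brightest, which began at a signal of 721.3. Only 5.40% of the dimmest genes were called lower, against 31.9% in the middle bin and 14.6% in the brightest. Calls of higher made up 39.0% of the brightest bin and 8.92% to 15.2% of the other bins. The dimmest bin ran from a signal of 32.1 to 83.2, close to the signal cut. By gene span the bins differed less, with medians of 0.07 in the shortest of 5 bins and 0.02 in the longest, and 21.1% and 21.6% of genes called lower.

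The kinases that THZ1 binds came first. CDK7 (Entrez gene 1022) had signals of 395 and 493 with DMSO and 251 and 323 with THZ1. Both THZ1 arrays were below both DMSO arrays. CDK7 fell by 0.41 on the relative scale (SE 0.07, 1.32-fold, limma adjusted p = 0.00148), but its difference of -0.60 as deposited did not pass (SE 0.25, adjusted p = 0.105). CDK12 had 253 and 311 with DMSO and 208 and 260 with THZ1, and CDK13 had 81.0 and 103 against 76.5 and 92.1. The groups overlapped for both, and neither passed on the relative scale, with -0.06 (adjusted p = 0.581) and 0.10 (adjusted p = 0.369). CDK12 turned positive under 2 other normalizations, at 0.01 and 0.08. Among 8 tested genes of the CDK7 complex and TFIIH, 2 were lower and 3 higher, but 0 were higher without the first DMSO or the second THZ1 array and 1 without the first THZ1 array. GTF2H1, the p62 subunit of TFIIH, had 821 and 976 with DMSO and 365 and 494 with THZ1. It fell by 0.85 (SE 0.09, limma adjusted p = 7.85e-05), and its 8 probe sets lay between -1.0 and -0.23. MITF, the factor that directs the melanocyte lineage, had 4670 and 5669 with DMSO and 3311 and 4178 with THZ1. Its difference of -0.27 (SE 0.10) passed narrowly (limma adjusted p = 0.0498) and no longer did when any 1 of the 4 arrays was left out (adjusted p = 0.0875 to 0.178).

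Rises of at least 1.5-fold were few beside falls of that size, and those in which every probe set of a gene was above 0 are described first. Of the 51 genes higher by at least 1.5-fold 35 had 2 or more detected probe sets, and in 26 of these all were above 0. KLF10 (Entrez gene 7071), a zinc finger factor induced by TGF-beta, had 445 and 582 with DMSO and 736 and 1085 with THZ1. BRD2, a bromodomain protein that reads acetylated histones, had 658 and 857 with DMSO and 1165 and 1458 with THZ1. For both genes the lower THZ1 array exceeded the higher DMSO array. KLF10 rose 1.99-fold (log2 difference 0.99, SE 0.08, limma adjusted p = 1.44e-05) and BRD2 rose 1.98-fold (0.98, SE 0.07, adjusted p = 1.10e-05). Both also passed on the deposited scale, at 0.79 and 0.78 (adjusted p = 0.0169 and 0.0190). Their second probe sets gave 1.11 and 0.70.

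The 9 genes higher on both scales were LSMEM1, SNAPC3, ID2, HSP90B2P, IER2, KLF10, BRD2, CSMD1 and RSRP1. Of these, LSMEM1, ID2, HSP90B2P and IER2 had 1 detected probe set each, while the probe sets of SNAPC3 reached down to 0.20 and those of CSMD1 to -0.10. LSMEM1 had signals of 29.2 and 39.1 with DMSO and 91.0 and 108.8 with THZ1. Both of its DMSO signals lay below the signal cut, so the size of its rise is uncertain. RSRP1 is an arginine and serine rich protein. Its signals were 244 and 215 with DMSO and 333 and 471 with THZ1. Its 4 probe sets ran from 0.93 to 1.27. ARGLU1, a nuclear protein linked to splicing, had 1441 and 1631 with DMSO and 2048 and 2889 with THZ1, and its 4 probe sets lay between 0.73 and 0.86. In both genes the second THZ1 array was the brighter of the pair, and the groups did not overlap. ARGLU1 passed on the relative scale (0.86, SE 0.08, limma adjusted p = 2.90e-05) but not as deposited (0.66, adjusted p = 0.0639).

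FOS (Entrez gene 2353), an immediate early gene and part of the AP-1 factor, also rose on all its probe sets. It had 707 and 766 with DMSO and 911 and 1286 with THZ1, so the groups did not overlap. It rose by 0.75 on the relative scale (SE 0.08, limma adjusted p = 1.19e-04), with 4 probe sets from 0.59 to 0.87. IER5L, a relative of the immediate early gene IER5, had 267 and 330 with DMSO and 394 and 514 with THZ1. Its 3 probe sets gave 0.75 to 0.77. CCN1, a matrix protein and a target of YAP, rose by 0.62, NEK7, a mitotic kinase, by 0.77, and PMAIP1, the BH3-only protein NOXA, by 0.54. PMAIP1 was the least separated of these, with 191 and 224 against 221 and 319. TMEM183A rose by 0.73, or by 0.48 without the second DMSO array, and it did not pass with its own variance (adjusted p = 0.0588). As deposited FOS, IER5L, CCN1, NEK7, PMAIP1 and TMEM183A did not pass (limma adjusted p = 0.13 to 0.56).

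**Figure D2:**
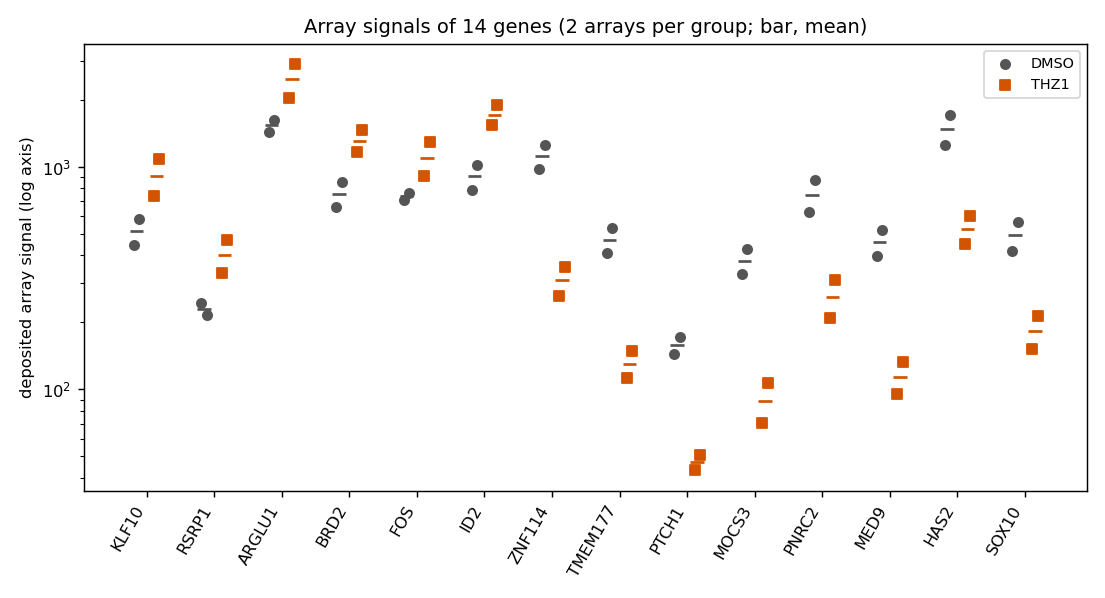
Deposited array signals on a log axis for 14 genes, with 2 DMSO arrays (circles) and 2 THZ1 arrays (squares) and a bar at the mean of each pair. In the 6 genes on the left every THZ1 signal is above both DMSO signals, and in the 8 on the right every THZ1 signal is below them.

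Falls of at least 1.5-fold outnumbered rises of that size. Among 7128 genes with at least 2 detected probe sets, 1656 were called lower, and in 1192 of these all probe sets were below 0. In 127 each probe set was lower by at least 1.5-fold, against 8 genes on the higher side. ZNF114 (Entrez gene 163071), a zinc finger protein, had 981 and 1249 with DMSO and 262 and 356 with THZ1. It fell 3.04-fold (relative log2 difference -1.60, SE 0.08, limma adjusted p = 1.81e-06), with -1.68 on its other probe set. TMEM177, a mitochondrial protein needed to build cytochrome c oxidase, had 410 and 533 with DMSO and 112 and 148 with THZ1. It fell 2.90-fold. Both genes had every THZ1 signal well under every DMSO signal.

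Genes of varied function were among the falls on which probe sets agreed. HAS2, which makes hyaluronan, had 1253 and 1715 with DMSO and 452 and 599 with THZ1. Its 3 probe sets ran from -1.48 to -1.27. PTCH1, the receptor and brake of the Hedgehog pathway, had 144 and 173 with DMSO and 43.3 and 50.9 with THZ1, close to the signal cut. Both fell by 1.27 on the tested probe set (SE 0.08 and 0.09, limma adjusted p = 6.64e-06 and 7.46e-06). OSGIN1, a growth inhibitor induced by oxidative stress, had 465 and 617 with DMSO and 126 and 206 with THZ1, and fell by 1.44. MOCS3, which acts in molybdenum cofactor synthesis and in tRNA thiolation, had 331 and 428 with DMSO and 70.8 and 107 with THZ1, and fell by 1.73. PLEKHA5, a membrane-binding adaptor, fell by 1.84 on 1 probe set and 1.20 on the other. MBP, a myelin protein, had -1.49 and -1.29 on its detected probe sets, but -0.18 (limma adjusted p = 0.0943) when all its probe sets were averaged.

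The last members of this group of 10 act in gene expression itself. PNRC2, an adaptor of mRNA decapping and of nuclear receptors, had 625 and 873 with DMSO and 209 and 311 with THZ1. MED9, a subunit of the Mediator complex, had 398 and 519 with DMSO and 95.1 and 133 with THZ1. No THZ1 array overlapped a DMSO array in either gene. PNRC2 fell 2.42-fold (log2 difference -1.28, SE 0.08, limma adjusted p = 6.64e-06) and MED9 fell 3.19-fold (-1.67, SE 0.08, adjusted p = 1.80e-06). Each had 3 probe sets, none weaker than -1.15.

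**Figure D3:**
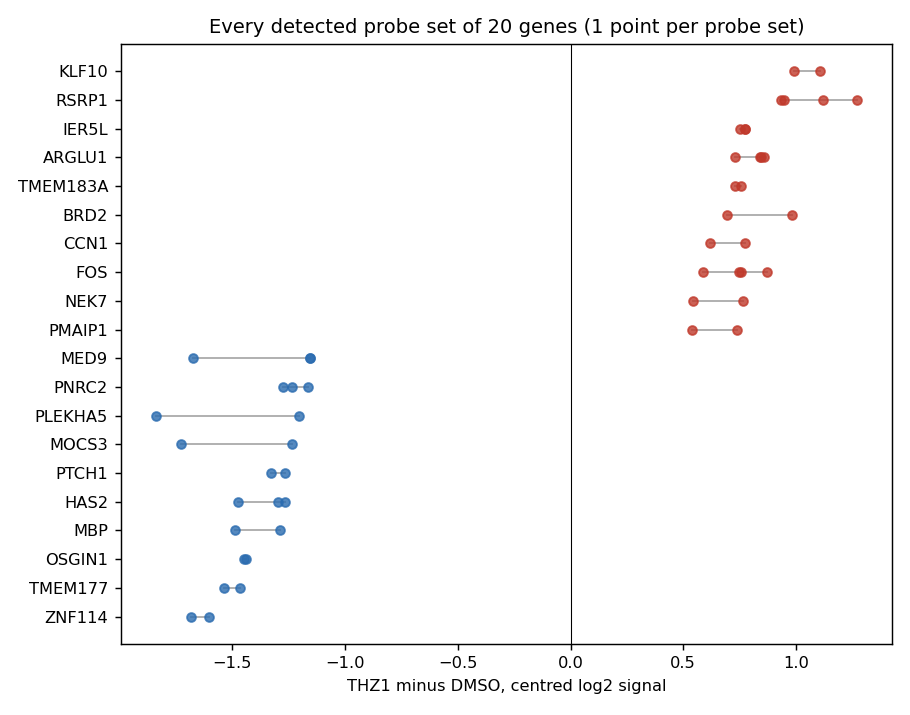
Each point is 1 detected probe set, placed by its centred log2 difference, THZ1 minus DMSO, for the 10 falls and 10 rises on which all probe sets of a gene had 1 sign. Lines join the probe sets of a gene. The points of ZNF114 lie at -1.68 and -1.60, and those of KLF10 at 0.99 and 1.11.

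The promoters of 2 genes that rose and 2 that fell on the relative scale are shown to compare what lies around their starts. ID2, which blocks the DNA binding of basic helix-loop-helix factors, was the largest rise after LSMEM1 and SNAPC3, with 789 and 1022 with DMSO and 1535 and 1899 with THZ1 (log2 difference 1.11, limma adjusted p = 7.47e-06). It was measured by 1 probe set. The windows run from 250 bases before to 50 bases after the start in RefSeq (GRCh38.p14, + strand, 300 bases) and lie at chr2:8681806-8682105 for ID2, chr14:75278578-75278877 for FOS, chr1:23959578-23959877 for PNRC2 and chr17:17476750-17477049 for MED9. Capitals mark CCAAT on either strand, which reads ATTGG on the other strand, and TATAAA.
ID2: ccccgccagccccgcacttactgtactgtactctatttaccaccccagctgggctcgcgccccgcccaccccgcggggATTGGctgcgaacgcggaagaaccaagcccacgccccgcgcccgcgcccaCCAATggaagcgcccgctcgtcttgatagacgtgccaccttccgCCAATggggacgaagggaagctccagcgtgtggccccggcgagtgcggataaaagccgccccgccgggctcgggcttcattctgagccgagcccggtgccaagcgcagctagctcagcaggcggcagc
FOS: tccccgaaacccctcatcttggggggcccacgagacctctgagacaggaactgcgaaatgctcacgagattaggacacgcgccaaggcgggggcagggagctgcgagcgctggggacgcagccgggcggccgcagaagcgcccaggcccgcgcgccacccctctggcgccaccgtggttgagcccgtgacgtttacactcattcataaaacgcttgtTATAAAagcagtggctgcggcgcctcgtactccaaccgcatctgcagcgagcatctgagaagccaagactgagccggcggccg
PNRC2: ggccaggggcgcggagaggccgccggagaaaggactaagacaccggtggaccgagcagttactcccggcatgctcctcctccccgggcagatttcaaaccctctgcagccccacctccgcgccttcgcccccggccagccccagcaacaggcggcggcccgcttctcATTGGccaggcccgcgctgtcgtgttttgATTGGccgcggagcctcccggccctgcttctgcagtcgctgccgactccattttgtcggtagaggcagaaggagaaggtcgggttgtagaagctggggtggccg
MED9: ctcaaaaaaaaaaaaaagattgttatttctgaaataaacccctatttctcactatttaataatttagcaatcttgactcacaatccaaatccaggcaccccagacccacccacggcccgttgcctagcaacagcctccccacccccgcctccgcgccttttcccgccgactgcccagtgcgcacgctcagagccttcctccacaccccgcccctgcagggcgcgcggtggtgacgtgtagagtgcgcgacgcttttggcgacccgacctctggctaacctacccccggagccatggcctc
ID2 held 3 CCAAT letters and PNRC2 held 2, so the motif was found in a gene that rose and in a gene that fell. FOS held 1 TATAAA, and MED9 held neither. Promoters were found for 9808 tested genes. CCAAT was in 36.5% of them and in 35.7% of all 27305 promoters of the table. It was in 41.6% of the 742 promoters of genes lower by at least 1.5-fold and in 46.2% of the 39 of genes higher by at least 1.5-fold. TATAAA was in 12.0% of all promoters, 5.92% of those of tested genes, and 4.99% and 5.13% of the lower and higher sets. These are letter matches on both strands, described without a test.

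Zinc finger genes were the largest family with low values. C2H2 zinc finger proteins bind DNA, and many carry a KRAB domain that recruits repressors. Of 288 tested ZNF genes 137 were lower and 9 higher on the relative scale, with a median of -0.25 against 0.04 for all genes. On the deposited scale 78 were lower and 0 higher, and 57 were lower by at least 1.5-fold on the relative scale. Leaving out 1 array gave 102 to 130 lower and 4 to 7 higher, with 4 without the second DMSO array. ZNF281, a zinc finger factor bright for its family, had 749 and 925 with DMSO and 273 and 362 with THZ1. It fell by 1.16 (SE 0.07, limma adjusted p = 5.34e-06), and its 3 probe sets ran from -1.16 to -0.69. ZNF7 had 260 and 315 with DMSO and 87.3 and 111 with THZ1 and fell by 1.20. ZNF518B had 141 and 163 with DMSO but 26.3 and 28.5 with THZ1, below the signal cut, and its second probe set gave -0.46 beside -1.75.

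ZNF genes were also set beside other genes of like signal and by chromosome. In each of the 5 bins of DMSO signal, a larger share of ZNF genes than of other genes was lower. In the middle bin it was 56.2% of 48 ZNF genes against 31.4% of other genes, and in the dimmest 27.6% of 87 against 4.56%. The ZNF median was below that of other genes in every bin, by the widest margin in the fourth, with -0.41 against -0.04. Many ZNF genes lie in clusters on chromosome 19, where 49 of 122 were lower, against 88 of 166 on other chromosomes. The medians were -0.21 and -0.28, while other genes of chromosome 19 had 0.08. Among genes with at least 2 detected probe sets, all probe sets were below 0 in 77 of 141 ZNF genes (54.6%) and in 1788 of 6987 other genes (25.6%).

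**Figure D4:**
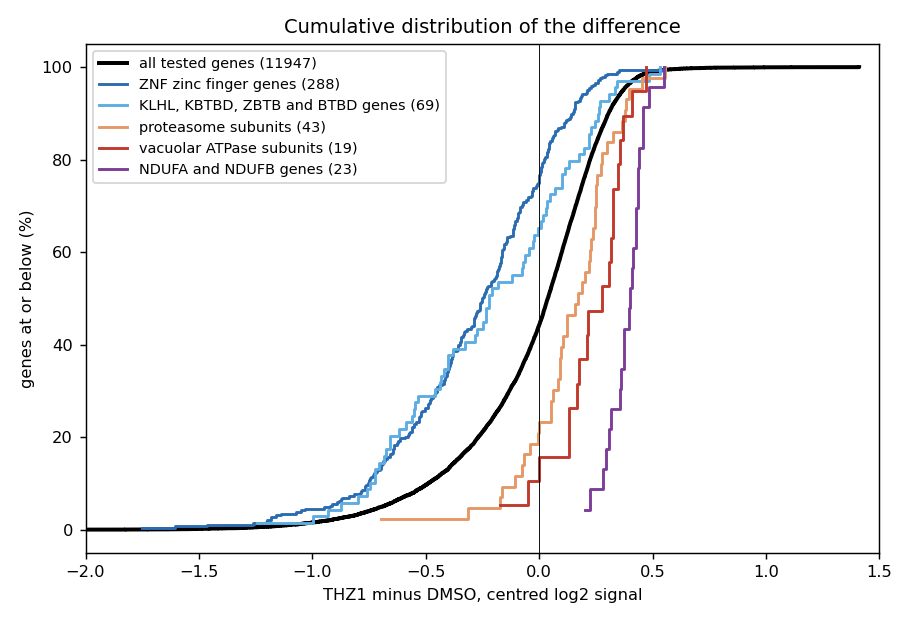
Share of genes (%) at or below each centred log2 difference, THZ1 minus DMSO, for all 11947 tested genes and for named families. The ZNF curve lies to the left of all genes, with a median of -0.25 against 0.04, and the NDUFA and NDUFB curve to the right.

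Genes were also grouped by the letters that open their symbols, which gave 146 families with at least 10 tested genes. The lowest medians belonged to other families of nucleic acid binding proteins. Of 10 ZCCHC genes, named for a zinc knuckle that binds RNA, 9 were lower and 0 higher (median -0.53). Of 11 THAP genes, zinc-dependent DNA binding proteins, 8 were lower and 1 higher (median -0.40), and of 32 ZBTB genes, which join zinc fingers to a BTB domain, 17 were lower and 2 higher (median -0.33). ZCCHC2 had 222 and 377 with DMSO and 83.9 and 100 with THZ1, and THAP7 had 316 and 341 with DMSO and 110 and 149 with THZ1. Both fell beyond the spread of their arrays, by 1.31 and 1.06 (limma adjusted p = 4.74e-05 and 1.15e-05). THAP10 was the 1 THAP gene that rose, by 0.78, and was picked out after its value was seen. The medians of these 3 families stayed negative under quantile normalization (-0.48, -0.34 and -0.32) and when each array was centred on its own median (-0.40, -0.26 and -0.20).

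Other transcription factor families also had more members lower than higher, with smaller shifts. The share called lower ran from 35.0% of HOX genes to 45.8% of nuclear receptors. Among all tested genes 21.1% were lower and 17.7% higher. Nuclear receptors, factors switched by hormones and lipids, had 11 of 24 lower and 2 higher (median -0.17). Of 38 SOX, FOX and GATA genes 14 were lower and 1 higher (median -0.16), of 19 KLF and SP genes 8 were lower and 2 higher (median -0.14), and of 20 HOX genes 7 were lower and 2 higher (median -0.12, or 0.01 with each array centred on its own median). Their few higher members depended on single arrays. Nuclear receptors had 0 higher without the second DMSO array or either THZ1 array, and the SOX, FOX and GATA list 0 without either DMSO array or the first THZ1 array. KLF and SP genes had 1 higher whichever of the 4 arrays was left out, and HOX genes 1 without the second DMSO or the second THZ1 array. FOXO1, a factor restrained by insulin signalling, had 254 and 297 with DMSO and 105 and 129 with THZ1, and fell by 0.94. Its other probe set gave -0.42. KLF9, a factor induced by steroids, had 630 and 720 with DMSO and 248 and 317 with THZ1. KLF9 fell by 1.02 on the tested probe set, and its 3 probe sets ran from -1.02 to -0.14. Of 18 circadian clock genes 6 were lower and 2 higher (median -0.08, or 0.06 with each array centred on its own median), or 3 lower without the first DMSO array, and 0 or 1 higher whichever array was left out. BHLHE41, a repressor in that clock, had 986 and 1374 with DMSO and 367 and 512 with THZ1. It fell by 1.19 (SE 0.10, limma adjusted p = 1.81e-05) with 3 probe sets from -1.19 to -0.61.

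Members of 1 family could move in opposite directions. While ID2 rose, ID3, its close relative, had 1410 and 1652 with DMSO and 748 and 900 with THZ1. ID3 fell by 0.68 (SE 0.08, limma adjusted p = 1.46e-04), and its 3 probe sets ran from -0.68 to -0.53. HES1 rose by 0.69 and HEY2 fell by 0.61, although both are repressors downstream of Notch. HES1 groups overlapped as deposited, with 158 and 229 against 223 and 337, and its 4 probe sets ran from 0.27 to 0.69. HOXB6 rose by 0.61 with overlapping groups, and HOXC8 fell by 0.76 without overlap. KLF10 and KLF9, described above, did the same within the KLF family.

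The machinery of transcription was mixed, beside 21.1% of all genes called lower and 17.7% called higher. P-TEFb is the kinase that releases paused polymerase, and 7SK RNA with its proteins holds it inactive. Of 31 tested genes of P-TEFb, 7SK and elongation factors 9 were lower and 4 higher (median 0.03), and the count of lower genes was 5 without either DMSO array. Higher members numbered 1 without the first DMSO array and 2 without the second DMSO or the second THZ1 array. The 2 largest falls were both parts of the 7SK complex. MEPCE, the enzyme that caps 7SK, had 653 and 838 with DMSO and 222 and 287 with THZ1, and HEXIM2, an inhibitor of P-TEFb, had 180 and 243 with DMSO and 58.5 and 67.1 with THZ1. Both fell without overlap, by 1.29 and 1.32 (limma adjusted p = 2.84e-06 and 1.08e-05). CCNT2, a cyclin of P-TEFb, rose by 0.53 with overlapping groups (69.0 and 94.2 against 86.9 and 127).

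Mediator and TFIID carry signals from enhancers to the polymerase at promoters. Of 44 of their subunits 14 were lower and 9 higher (median -0.05, or 0.08 with each array centred on its own median), and 4 were higher without the second DMSO array or the first THZ1 array. TAF4, a core subunit of TFIID, had 298 and 361 with DMSO and 125 and 167 with THZ1, and MED7 had 262 and 322 with DMSO and 117 and 158 with THZ1. TAF4 fell by 0.90 and MED7 by 0.81, beside MED9. Among 30 bromodomain genes 13 were lower, or 8 without the first DMSO array, and 3 were higher, or 1 without the first DMSO or the second THZ1 array (median -0.13). BRD2 was at the top of that list and BRD3, its relative, at 118 and 146 with DMSO and 38.7 and 45.9 with THZ1, fell by 1.14. The other 2 probe sets of BRD3 were less low, up to -0.12. ZMYND8, a reader of histone marks, fell by 1.0, and its 6 probe sets were all below 0.

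Integrator cuts short transcripts made by polymerase II, and the cleavage and polyadenylation factors cut mRNA ends. Of 32 of their genes 15 were lower and 3 higher, or 1 higher without the second THZ1 array, with a median of -0.24. Of 16 genes named INTS 9 were lower and 1 higher (median -0.30). CSTF3, a cleavage stimulation factor, had 341 and 390 with DMSO and 102 and 137 with THZ1 and fell by 1.30, but its 5 probe sets ran from -1.30 to 0.23. CPSF6, another cleavage factor, rose by 0.74 with overlapping groups. Of 49 genes of mRNA decay, 16 were lower, or 10 without the first THZ1 array, and 4 were higher (median -0.14). EXOSC4, a core exosome subunit, had 1113 and 1491 with DMSO and 577 and 766 with THZ1, and fell by 0.74 (SE 0.07, limma adjusted p = 4.43e-05).

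Of the RNA modifying enzymes, 13 of 22 METTL genes were lower and 1 higher (median -0.28). METTL genes encode methyltransferases, several of which act on RNA. Of 15 TRMT genes, tRNA methyltransferases, 7 were lower and 0 higher, or 4 lower without the first DMSO or the second THZ1 array. Of 61 SRSF, HNRNP and SF3 splicing factors 14 were lower and 13 higher (median 0.05, or -0.08 with quantile normalization). Without the first DMSO array 7 were lower and 6 higher, without the second 9 and 8, without the first THZ1 array 9 and 9, and without the second 10 and 7. Over the 4 arrays the shares of these splicing factors lay near the 21.1% of all genes called lower and the 17.7% called higher. HNRNPA3, an RNA-binding protein, had 366 and 404 with DMSO and 463 and 667.5 with THZ1. It rose by 0.71, but the mean of its probe sets did not pass (0.14, adjusted p = 0.243). Of the 11 SRSF genes among them 6 were lower and 0 higher, or 3 lower without the first DMSO array. SRSF3, a shuttling splicing factor, was among the brightest genes that fell, with 3413 and 4060 with DMSO and 1766 and 2196 with THZ1. It fell by 0.71 (SE 0.07, limma adjusted p = 5.70e-05), and its 6 probe sets ran from -1.11 to -0.41. Of 36 tested long noncoding genes and hosts of small nucleolar RNAs 10 were lower (27.8%) and 4 higher (11.1%), with a median of 0.01. Without either DMSO array 6 were lower, without the second THZ1 array 5, and without the first THZ1 array 2 were higher. MALAT1, an abundant nuclear RNA, had 1140 and 1298 with DMSO and 1557 and 1795 with THZ1. It rose by 0.65, with 3 probe sets from 0.19 to 0.65, and did not pass on the probe set used when _x_at and _s_at designs were left out (0.19, adjusted p = 0.431). LINC00473, a long noncoding RNA induced by cAMP signalling, had 518 and 642 with DMSO and 184 and 232 with THZ1, and SNHG12, a small nucleolar RNA host, had 358 and 425 with DMSO and 141 and 168 with THZ1. These fell by 1.22 and 1.06.

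Histone modifiers were mixed, beside 21.1% of all genes called lower and 17.7% called higher. Over the 4 arrays the shares of deacetylase and sirtuin genes and of remodeller subunits called lower lay near that of all genes. Of 49 histone lysine methyltransferases and demethylases 16 were lower and 3 higher (median -0.08), or 1 higher without the first DMSO array. With each array centred on its own median they had 13 lower and 10 higher (median 0.05). Of 21 histone deacetylase and sirtuin genes 4 were lower and 3 higher (median 0.12), or 1 higher without either DMSO array or the second THZ1 array. Of 41 subunits of chromatin remodellers 10 were lower and 3 higher (median -0.04, or 0.09 with each array centred on its own median), or 5 lower without the second DMSO array and 6 without the first THZ1 array. SETDB2, a histone methyltransferase, had 240 and 301 with DMSO and 112 and 135 with THZ1, and fell by 0.83. SUV39H2, which methylates histone H3 in heterochromatin, had 275 and 364 with DMSO and 140 and 180 with THZ1. It fell by 0.73 on the tested probe set, but its other probe set gave -0.13. CHD1, a remodeller found at active genes, had 667 and 833 with DMSO and 318 and 442 with THZ1, and fell by 0.76. In each the THZ1 arrays were below both DMSO arrays.

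The counts of the signalling pathways were set beside the 21.1% of all genes called lower and the 17.7% called higher. TGF-beta and BMP receptors act through SMAD factors. Of 28 tested genes of that pathway 9 were lower (32.1%) and 3 higher (median -0.09, or 0.05 with each array centred on its own median). SMAD3, a TGF-beta effector, had 208 and 262 with DMSO and 97.9 and 139 with THZ1, and SMAD1, a BMP effector, had 213 and 250 with DMSO and 96.6 and 132 with THZ1. They fell by 0.71 and 0.73 with no overlap (limma adjusted p = 3.90e-05 and 2.73e-04). The ligand gene TGFB1 rose by 0.44 and was picked out after its value was seen. Of 35 WNT pathway genes 9 were lower (25.7%) and 4 higher (11.4%), or 2 higher without the first DMSO array. Their median of -0.10 became 0.03, with 7 lower and 8 higher, when each array was centred on its own median. LEF1, a factor that acts with beta-catenin, fell by 0.67, with 8 probe sets from -0.67 to -0.08. Of 20 Hippo and YAP target genes 4 were lower and 5 higher (median -0.06), and of 32 receptor tyrosine kinases 6 were lower and 4 higher (median 0.02). Both lists had 2 higher without either DMSO array, the first also without the second THZ1 array and the second also without the first THZ1 array. Of 31 genes of the PI3-kinase, AKT and mTOR pathway 11 were lower (35.5%) and 3 higher (median -0.03), or 7 lower without either DMSO array or the first THZ1 array, and 1 higher without the second DMSO array and 0 without the second THZ1 array. With each array centred on its own median 6 were lower and 11 higher. When the probe sets of each gene were averaged, 3 of 27 tested genes of the pathway were lower and 2 higher (median 0.05). PIK3R1, the regulatory subunit of PI3-kinase, had 415 and 529 with DMSO and 170 and 253 with THZ1. It fell by 0.92 (SE 0.08, limma adjusted p = 2.20e-05), with 8 probe sets from -1.14 to -0.34.

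Of 47 cyclins, cyclin-dependent kinases and their inhibitors 12 were lower and 10 higher (median 0.05), or 4 higher without the first DMSO or the second THZ1 array. Those shares, 25.5% lower and 21.3% higher over the 4 arrays, lay near the 21.1% and 17.7% of all genes. CDKN1B, the inhibitor p27, had 431 and 527 with DMSO and 165 and 245 with THZ1. CCNE2, a cyclin that p27 restrains with its kinase, had 314 and 378 with DMSO and 149 and 224 with THZ1. Brake and cyclin fell together, by 0.98 and 0.66 (limma adjusted p = 1.18e-05 and 1.25e-04). Of 24 DNA damage checkpoint genes 11 were lower and 2 higher (median -0.19), or 0 higher without either DMSO array or the first THZ1 array. RAD1, part of the clamp that senses damage, had 516 and 633 with DMSO and 267 and 364 with THZ1, and ATRIP, the partner of the kinase ATR, had 97.5 and 118 with DMSO and 45.9 and 51.4 with THZ1. RAD1 fell by 0.64 with 5 probe sets from -0.71 to -0.33, and ATRIP fell by 0.73. Of 30 genes of nucleotide and base excision repair 11 were lower and 3 higher (median -0.12, or 0.01 with each array centred on its own median). TDG, a DNA glycosylase, had 426 and 563 with DMSO and 180 and 245 with THZ1, and fell by 0.96.

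Among 5 lists drawn up for ubiquitin transfer, the BTB domain genes and the TRIM and RNF ligases had the lowest medians. All tested genes had 21.1% lower and 17.7% higher. The shares of E2 enzymes and USP deubiquitinases called over the 4 arrays lay near these in both directions. Of 69 KLHL, KBTBD and other BTB domain genes 31 were lower and 8 higher (median -0.22). The list includes the ZBTB genes described above, of which 17 of 32 were lower (median -0.33). Of 23 KLHL genes, which choose substrates for cullin ligases, 8 were lower and 4 higher. The KLHL median was 0.02, beside 0.04 for all genes. KLHL9 had 310 and 390 with DMSO and 128 and 160 with THZ1, and its 4 probe sets ran from -1.20 to -0.92. Of 99 TRIM and RNF genes 36 were lower and 6 higher (median -0.14), or 1 higher without the first DMSO array and 3 without the second THZ1 array. TRIM27 had 431 and 519 with DMSO and 193 and 275 with THZ1, and its 3 probe sets ran from -0.79 to -0.73. Of 44 F-box genes 14 were lower and 10 higher (median -0.08), of 25 E2 enzymes 6 were lower and 5 higher (median 0.02), and of 38 USP deubiquitinases 8 were lower and 8 higher (median 0.05). The F-box median became 0.05 with each array centred on its own median. Higher E2 genes numbered 0 without the first DMSO array, 3 without the second and 1 without the second THZ1 array. Without the first DMSO array 9 F-box genes were lower and 6 higher, and 3 USP genes were higher. Without the second DMSO array 9 F-box and 5 USP genes were lower and 4 USP genes higher, and without the second THZ1 array 3 USP genes were higher. USP27X, a deubiquitinase, was the lowest of the USP genes named by the rule, with 197 and 223 with DMSO and 70.2 and 88.3 with THZ1, and fell by 1.05.

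Genes of respiration lay at the other end of the 146 families. NDUFA and NDUFB genes encode subunits of complex I, the first complex of the respiratory chain, and COX genes encode subunits and assembly factors of cytochrome c oxidase. Of 12 NDUFA genes 10 were higher and 0 lower (median 0.41), of 11 NDUFB genes 11 were higher (median 0.40), and of 23 COX genes 16 were higher and 1 lower (median 0.31). NDUFA12 had 1670 and 1800 with DMSO and 1896 and 2591 with THZ1, without overlap. COX6C had 4186 and 5459 with DMSO and 5041 and 6974 with THZ1, so its groups overlapped as deposited. NDUFA12 rose by 0.55 and COX6C by 0.51 on the relative scale (limma adjusted p = 7.63e-04 and 5.03e-04), yet neither passed as deposited, and 0 members of these 3 families were called higher there. Without the first DMSO array 10 NDUFA, 10 NDUFB and 12 COX genes were still called higher. COX19, a copper assembly factor, had 389 and 442 with DMSO and 159 and 227 with THZ1. It was the 1 COX gene that fell, by 0.86, and was also called lower as deposited (-1.06, limma adjusted p = 5.545e-04), but its second probe set gave 0.16 and the mean of its probe sets did not pass (-0.10, adjusted p = 0.268).

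Bright genes lay high in general, so these families were set beside other genes of the brightest bin, whose median was 0.16. There the medians were 0.43 for 11 NDUFA, 0.40 for 11 NDUFB and 0.37 for 16 COX genes, and 0.31 for 26 RPS and 0.26 for 44 RPL genes, of the small and large ribosomal subunits. With quantile normalization the medians of the whole families fell to 0.23, 0.20 and 0.12 for NDUFA, NDUFB and COX, with 8, 8 and 7 members higher. RPS and RPL genes then had medians of 0.05 and 0.00, and 3 members of each were higher, against 21 of 35 and 30 of 48 on the relative scale. Leaving out the second DMSO array gave 10 RPS and 6 RPL genes higher, leaving out the first THZ1 array gave the same counts, and leaving out the first DMSO array gave 20 and 17.

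The proton pump of lysosomes and melanosomes, the V-ATPase, had the highest median of the lists drawn by function with at least 10 tested genes, 0.28. Of its 19 tested genes 11 were higher and 0 lower. ATP6V1D had 1443 and 1859 with DMSO and 1732 and 2260 with THZ1, and its 3 probe sets gave 0.44 to 0.51. It rose by 0.47 on the relative scale (SE 0.07, limma adjusted p = 6.93e-04), with overlapping groups as deposited. The list gave 6 higher without the second DMSO array, 7 without the second THZ1 array and 4 with quantile normalization (median 0.13), while the deposited median was 0.08.

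For the proteasome and the translation factors the sign of the median depended on the scale, and for the CCT chaperonin its size did. Of 43 proteasome genes 18 were higher and 2 lower (median 0.17), of 15 CCT and prefoldin genes 8 were higher and 0 lower (median 0.22), and of 62 translation factors 18 were higher and 8 lower (median 0.13). As deposited the medians were -0.03, 0.02 and -0.07, and with quantile normalization 0.01, 0.02 and 0.00. Higher members then numbered 6, 1 and 5. Without the second DMSO array they numbered 9, 2 and 10, without the first THZ1 array 10, 4 and 10, and without the first DMSO array 11, 5 and 12. Without the second THZ1 array they numbered 12, 4 and 12. PSMD1, a large subunit of the proteasome cap, had 1668 and 2121 with DMSO and 2250 and 2583 with THZ1. It rose by 0.55 without overlap, and its second probe set gave 0.15. EIF4ENIF1, which carries the cap-binding protein eIF4E into the nucleus, had 259 and 298 with DMSO and 98.6 and 160 with THZ1. It fell by 0.85, although its second probe set gave 0.01.

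Some large families lay at the middle of all genes. Of 212 solute carriers, the transporters of small molecules, 30 were lower (14.2%) and 32 higher (15.1%), with a median of 0.03. Of all genes 21.1% were lower and 17.7% higher. SLC38A2, an amino acid transporter, had 2001 and 2528 with DMSO and 1090 and 1452 with THZ1. It fell by 0.63, and its 3 probe sets ran from -0.63 to -0.20. Leaving out 1 array gave 16 to 21 solute carriers higher, and the second DMSO array was the one without which 17 were lower. Mitochondrial ribosomal proteins had 9 of 77 lower and 9 higher (median 0.04, or -0.04 with quantile normalization). In the brightest bin their median was 0.08 beside 0.17 for other genes. Integrins, which bind cells to matrix, had 8 of 22 higher and 0 lower (median 0.16), but 4 higher without either DMSO array or the second THZ1 array. Among the remaining lists in the plot of medians, nuclear pore genes and importins had a median of -0.06, DEAD and DEAH box helicases -0.05, peroxisome genes -0.05, the Notch pathway -0.01, tubulins 0.02, centrosome and cilium genes 0.04, tRNA synthetases 0.06, RAB GTPases 0.07, ID and HES repressors 0.14 and collagens 0.15.

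**Figure D5:**
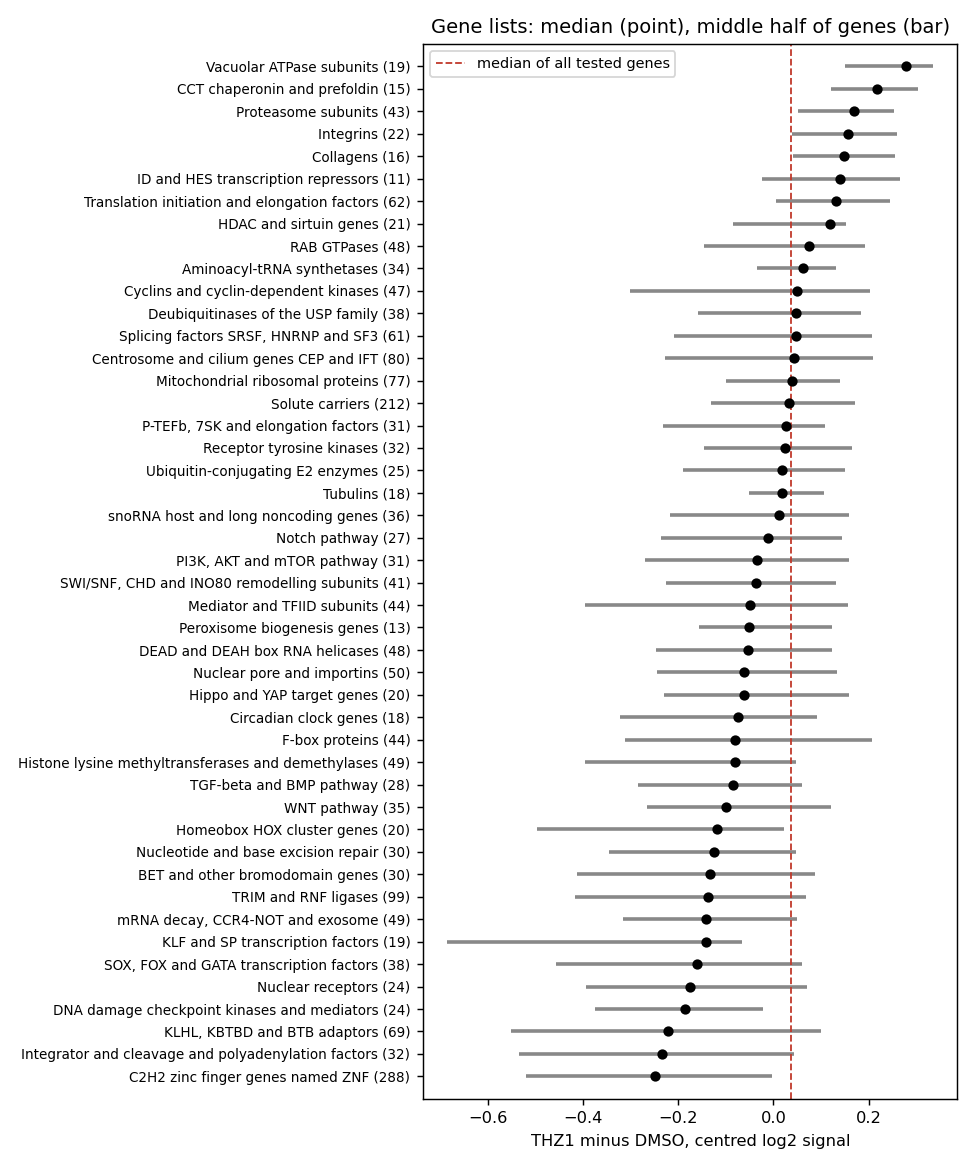
Median (point) and interquartile range (bar) of the centred log2 difference, THZ1 minus DMSO, for each list with at least 10 tested genes, whose number is in brackets. The dashed line is the median of all genes, 0.04, and the medians run from -0.25 for ZNF genes to 0.28 for the V-ATPase.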

How the data were processed

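Gene expression was measured on 8 Affymetrix arrays of SK-MEL-5 cells in 4 groups of 2, of which THZ1 and DMSO are compared here. The deposited values are linear array signal intensities, summarised by the authors with MAS5 per the submitters' processing notes, which give no version, and normalized to cell number per the labels. How that normalization was calculated is not given in the sources used here. As deposited, the median signals of the 8 arrays ran from 32.5 to 76.1, and such array offsets limit what the deposited scale can show.

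The 49495 probe sets comprise 45278 with a single gene symbol, 1333 with more than 1, 2682 unnamed, 100 for ERCC and 102 for other controls. RefSeq (GRCh38.p14) held the gene IDs of 45208, and for 70 the symbol of the platform was used. A gene was represented by its brightest such probe set and tested if its mean log2 signal was at or above the 40th percentile of all, a signal of 39.2. This kept 11947 of 18244 genes. Among the probe sets representing these genes, 1587 were of the _x_at and 2260 of the _s_at design, which may cross-hybridise, so paralogs may share signal. Signals were analysed as log2(value + 16) in R 4.3.3 with limma 3.58.1. The fit had a mean for each group over the 8 arrays, moderated variances and Benjamini-Hochberg adjustment, and calls were made at 0.05. The prior degrees of freedom were 5.97 beside 4 residual on the relative scale, with a median SE of 0.084, and infinite on the deposited scale. Tested on simulated data of 11947 genes, the relative fit called 92.5% of 200 changed genes and 12 unchanged ones. The data gave 2520 genes lower and 2115 higher, far more than the 200 changed in the simulation. The simulation therefore does not give the share of these calls that are false. Figures used Python 3.11.15, pandas 2.3.3 and matplotlib 3.10.9.

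Named genes were CDK7, CDK12, CDK13 and MITF, the 10 largest falls and rises with at least 2 detected probe sets of 1 sign, ranked by the weakest, up to 4 called members per list by adjusted p, and up to 2 for the 5 lowest and 5 highest symbol families. Of these, genes that other settings reversed or lost were mostly left out. Cell type markers and genes marked in the text were added. The members, lists and centring were chosen with earlier results of these data known, so list counts and medians are descriptions without a test. Alternatives were the pseudocount, the filter, the choice of probe sets, the normalization, the arrays in the fit, the variance, a replicate block and leaving out each array. Promoters were matched by Entrez gene ID to the RefSeq table, and motifs were searched on both strands.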

Additional observations from a re-analysis of the deposited data

How the results depend on the processing

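With a pseudocount of 1, 79 genes were higher by at least 1.5-fold, and with 64 there were 30, and 494 lower. Without the filter 477 genes were higher. With only the 4 THZ1 and DMSO arrays in the centring and the fit, 2500 genes were lower and 1411 higher. These arrays gave 882 and 6 as deposited, and 937 and 46 by at least 1.5-fold. The mean of probe sets gave 489 lower and 25 higher by at least 1.5-fold. Every probe set on its own gave 4960 lower and 4065 higher, 1953 and 31 as deposited, and 1574 and 175 by at least 1.5-fold, over more features. Centring on the array's own median gave 4530 higher, and 542 lower and 194 higher by at least 1.5-fold. With each gene's own variance 1351 were higher, and 0 were called either way as deposited. Where 1 array was left out, the lone array was assumed to vary like the other groups. Counts then ran from 1920 to 2154 lower and 1237 to 1523 higher, with 1237 without THZ1 replicate 2. As deposited they ran from 246 lower without DMSO replicate 2 (354 without THZ1 replicate 1) to 2099 without THZ1 replicate 2, and from 3 to 14 higher. By at least 1.5-fold they ran from 835 to 937 lower and 67 to 87 higher. The cause of these shifts was not tested.

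The replicate numbers 1 and 2 occur in both groups, and the deviations of same-numbered arrays correlated at 0.112, from only 2 pairs, so the numbers were not taken as a pairing. With the replicate block 2492 genes were lower and 1931 higher, 1534 and 13 as deposited, and 881 and 53 by at least 1.5-fold. Other settings turned the sign of a few named genes. The mean of probe sets gave ABL2 0.051, quantile normalization gave CDK12 0.008 and MLANA -0.017, and centring on the array's own median gave CDK12 0.076 and PMEL 0.11. PMEL had -0.22 to 0.17 when 1 array was left out. With the block the 98 genes named in the text kept their direction and side of the threshold. Since genes that other settings reversed or lost were mostly left out of the text, this is no measure of stability.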

Other observations

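Genes of the X chromosome lay higher than those of other chromosomes on the relative scale. Of 398 tested X-linked genes 46 (11.6%) were lower and 110 (27.6%) higher, with a median of 0.12. On the other chromosomes 15.3% to 27.8% of genes were lower and 13.0% to 20.9% higher. The median DMSO signal of X-linked genes was 230.4, and those of the other chromosomes ran from 124.5 to 320.9. No reason was tested.

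Some genes had probe sets that were called in opposite directions. This was so for 161 of 7128 genes with at least 2 detected probe sets (2.26%), and in 13 of them each call was at least 1.5-fold. SSH1, a phosphatase that activates cofilin, had 822 and 808 with DMSO and 223 and 350 with THZ1 on its lowest probe set. On its highest it had 343 and 387 with DMSO and 582 and 894 with THZ1. The relative differences were -1.29 and 1.16, and the groups overlapped on neither probe set. NR4A3, an orphan nuclear receptor and immediate early gene, had -0.94 on 1 probe set (353 and 408 against 134.5 and 197) and 1.34 on another (48.7 and 45.0 against 111 and 135). ABL2, a tyrosine kinase, had -1.0 (502 and 636 against 188 and 297) and 1.20 (51.6 and 65.6 against 111 and 156). PMS1, a mismatch repair protein, had -0.95 (88.6 and 103 against 31.1 and 37.7) and 1.0 (33.4 and 48.9 against 69.8 and 97.2). INTS6, a subunit of Integrator, had -1.73 (322 and 379 against 74.1 and 86.5) and 0.62 (67.5 and 112 against 107 and 140), with overlapping groups on the second. The single value that stands for each of these genes therefore depends on the probe set chosen. Where in the transcript these probe sets lie was not analysed here.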
